A study of Saccharomyces cerevisiae with 6 samples.

Results

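Nitrogen regulators and ammonia assimilation genes of budding yeast (Saccharomyces cerevisiae) were examined as RNAs that carry their leaders, which run from the 5′ end to the start codon. The set comprised 10 genes listed by locus: 6 transcription regulators (DAL81, YIR023W; DAL82, YNL314W; GAT1, YFL021W; GLN3, YER040W; DAL80, YKR034W; GZF3, YJL110C) and 4 enzymes (GLN1, YPR035W; GDH1, YOR375C; GDH2, YDL215C; GLT1, YDL171C). Every RNA in the table whose locus matched was taken, which gave 7 RNAs of 5 genes among 6962 RNAs of 4134 genes. DAL81, GAT1 and GZF3 had 1 RNA each, and DAL82 and GDH1 had 2. GLN3, DAL80, GLN1, GDH2 and GLT1 are not analysed here. The set therefore covers 4 of the 6 regulators and 1 of the 4 enzymes.

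The RNAs were part of a pool transcribed by T7 RNA polymerase, capped and mixed with a translation extract of S. cerevisiae, per the labels. Of the 6 libraries, 3 came from the 80S fraction of a sucrose gradient, which holds RNAs bound by a complete ribosome, 2 from a fraction labelled untranslated, and 1 from the input pool. The labels name a biotin pulldown for the 80S and untranslated libraries and none for the input, so the pulldown and the fraction cannot be told apart in comparisons with the input. All libraries hold the same pool, and the RNAs stem from transcription in vitro and not from cells grown on a nitrogen source. Nothing states whether replicates were separate extracts, so p-values reflect how these libraries vary, and that variation may be technical.

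Yeast takes up preferred nitrogen sources first and holds the genes for poorer ones silent, a control called nitrogen catabolite repression. GATA-type zinc finger proteins carry it out: GLN3 and GAT1 activate the genes, while DAL80 and GZF3 repress them through the same kind of site. DAL81 and DAL82 add induction by a particular nutrient, such as the breakdown products of allantoin. Ammonia enters amino acids through GDH1, which makes glutamate with NADPH, and through GLN1, which makes glutamine. GLT1 turns glutamine back into glutamate, and GDH2 releases ammonia from glutamate.

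The leaders were read from the reference genome R64 (RefSeq) as the stated number of nucleotides (nt) ahead of the annotated start codon. The reference annotates the coding sequences alone, and the synthesised RNAs may differ from it. All positions are 1-based on R64, and sequences are DNA letters of the RNA's strand, written 5′ to 3′. Short stretches are shown for the 3 single-leader genes, where the leader meets the start codon in capitals (for DAL81 this is its whole leader). For DAL82 and GDH1, whose leaders share their end, the stretch that the longer leader alone holds is shown, with an upstream ATG in capitals.
DAL81, whole leader, chrIX:399759-399779, plus strand: aggcagccatactatcaaATG
GAT1, end of the leader, chrVI:95954-95968, plus strand: cccggtattagcATG
GZF3, end of the leader, chrX:211575-211589, minus strand: actggtaatattATG
DAL82, added by the 56 nt leader, chrXIV:44391-44415, plus strand: attgataacaacATGgtttaacgat
GDH1, added by the 68 nt leader, chrXV:1043090-1043110, minus strand: gaaagttgcttgatacgtact

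Abundance is given as FPKM, by name fragments scaled to RNA length and to the mapped reads of a library. How the authors computed FPKM, and with what lengths, is not given. As a share of a library, it can go up for an RNA when other RNAs go down. Differences were tested with limma on log2(FPKM + 1) over all 6962 RNAs, with Benjamini-Hochberg adjustment, and an RNA is called where the adjusted p lies under 0.05. Fold changes are on this log2(FPKM + 1) scale. The scale matters for small changes: the median of all RNAs was 0.18 for 80S against untranslated, -0.25 for 80S against input and -0.36 for untranslated against input, and 0.03, -0.01 and 0.02 once libraries were rescaled by median ratios.

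The members went in opposite directions between the ribosome-bound and the untranslated fraction. Of the 7 RNAs, 3 rose in 80S (DAL82 56 nt, GZF3 89 nt and GDH1 47 nt), 3 fell (DAL81 18 nt, DAL82 31 nt and GAT1 64 nt), and GDH1 68 nt was not called. Over the whole pool 70.4% of RNAs were called, 38.6% as higher and 31.8% as lower, so calls were common throughout and 6 of 7 called members is not read as a property of the set. The 80S and untranslated libraries did not overlap for any of the 7 members, as for 79.5% of all RNAs. The median log2 change of the members was 0.34, against 0.18 over the pool.

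**Figure D1:**
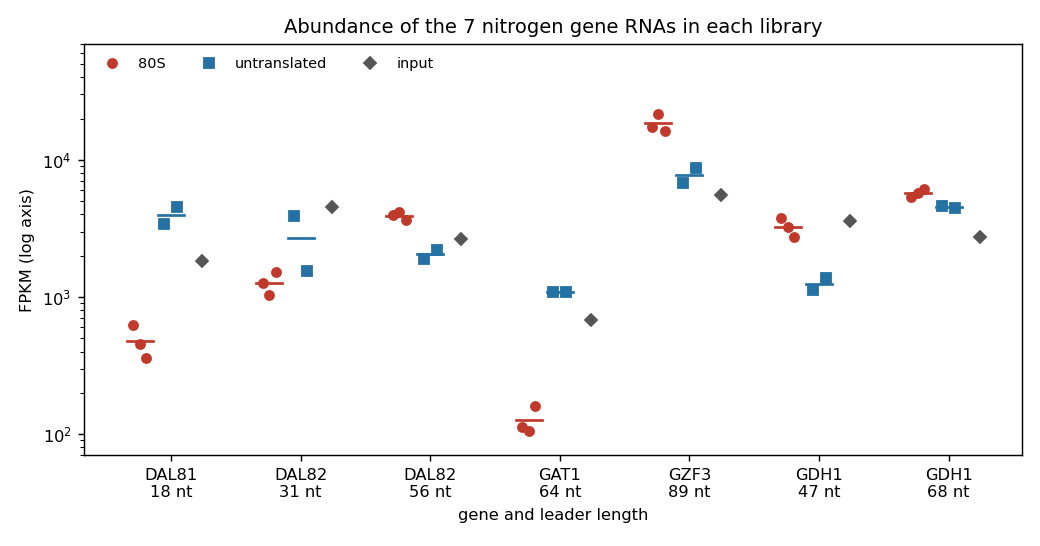
FPKM (log axis) of the 7 RNAs in each library, with 80S, untranslated and input libraries side by side and a bar at the mean of replicated groups. GAT1 lies between 105 and 160 FPKM in 80S and DAL81 between 356 and 625, far under their untranslated libraries, while GZF3 is the most abundant member in every library.

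GAT1 and DAL81 stood lowest in 80S. GAT1, the GATA activator, had 112, 105 and 160 FPKM in the 80S replicates, against 1089 and 1095 FPKM in the untranslated replicates and 684 FPKM in the input. The 80S libraries lay far under the untranslated ones, which were almost equal to each other. The change was 8.77-fold lower in 80S, a log2 change of -3.13 (95% interval -3.76 to -2.50, limma, adjusted p = 3.278e-05). GAT1's mean 80S level was the 16th lowest of the 6962 RNAs, and its log2 change lay at percentile 1.57 of all RNAs. GAT1 was already scarce in the input, at percentile 9.37, and its mean untranslated level lay at percentile 25.2.

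DAL81, the zinc cluster activator that serves several nitrogen pathways, gave a like change from a leader of 18 nt. It had 625, 456 and 356 FPKM in 80S, against 3432 and 4493 FPKM in untranslated RNA and 1838 FPKM in the input. All 80S libraries were below the input and both untranslated libraries above it. DAL81 was 8.41-fold lower in 80S than in untranslated RNA (log2 -3.07, 95% interval -3.72 to -2.43, limma, adjusted p = 3.836e-05). Its 80S libraries spread more than most, with an SD of 0.41 on the log2 scale against a median of 0.18 over the pool. Leaving out any 1 library ended neither of these 2 calls.

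The repressor GZF3, which acts on the same GATA sites as GAT1, went the other way. It had 17379, 21593 and 16315 FPKM in 80S, against 6779 and 8671 FPKM in untranslated RNA and 5516 FPKM in the input. Every 80S library exceeded every other library. GZF3 was 2.39-fold higher in 80S than in untranslated RNA (log2 1.25, 95% interval 0.81 to 1.70, limma, adjusted p = 0.000548). Its log2 change lay at percentile 79.1 of all RNAs. Its mean 80S level lay at percentile 98.4 of all RNAs, its mean untranslated level at percentile 89.5 and its input level at percentile 75.4.

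GAT1 and GZF3 had almost the same predicted folding energy for the leader alone, -19.6 and -19.4 kcal/mol, at percentiles 1.01 and 1.08 of all leaders. Per nt of these leaders of 64 and 89 nt it differed: -0.306 kcal/mol for GAT1 and -0.218 for GZF3, at percentiles 0.12 and 1.54. Their base composition also differed. The GAT1 leader held 60.9% G and C, the highest share of the 1964 leaders of at least its length, ahead of 54.4% in the next. The GZF3 leader held 32.6% G and C, near the pool median of 34.7%. Another 15 leaders had a share of G and C at or above that of GAT1, all of them 13 to 31 nt long. Of these, 8 (53.3%) were lower in 80S and 0 higher by limma's call (0 higher also at an unadjusted p under 0.05). Their median log2 change was -0.72. Among all leaders with a sequence 31.7% were lower and 38.8% higher, with a median of 0.18. Of the 73 other leaders with a folding energy at or below that of GZF3, 30 were higher and 24 lower (41.1% and 32.9%). The part of either feature in these differences was not tested.

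Among the members, the 3 RNAs that fell in 80S had the highest shares of G and C: 60.9% for GAT1, 45.2% for DAL82 31 nt and 44.4% for DAL81. The other 4 lay between 27.7% for GDH1 47 nt and 37.5% for DAL82 56 nt. This is a description over 7 RNAs, of which the pairs of DAL82 and GDH1 share sequence. Whether G and C content, length or the bases around the start codon bear on the direction was not tested. Of the 101 other leaders of 18 nt, the length of the DAL81 leader, 38 were higher in 80S and 33 lower. The base 3 nt ahead of the start codon was A in GAT1, which fell, and in GZF3, which rose, as it was in 62.5% of all leaders. It was also A in both DAL82 RNAs, C in DAL81 and G in both GDH1 RNAs.

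**Figure D2:**
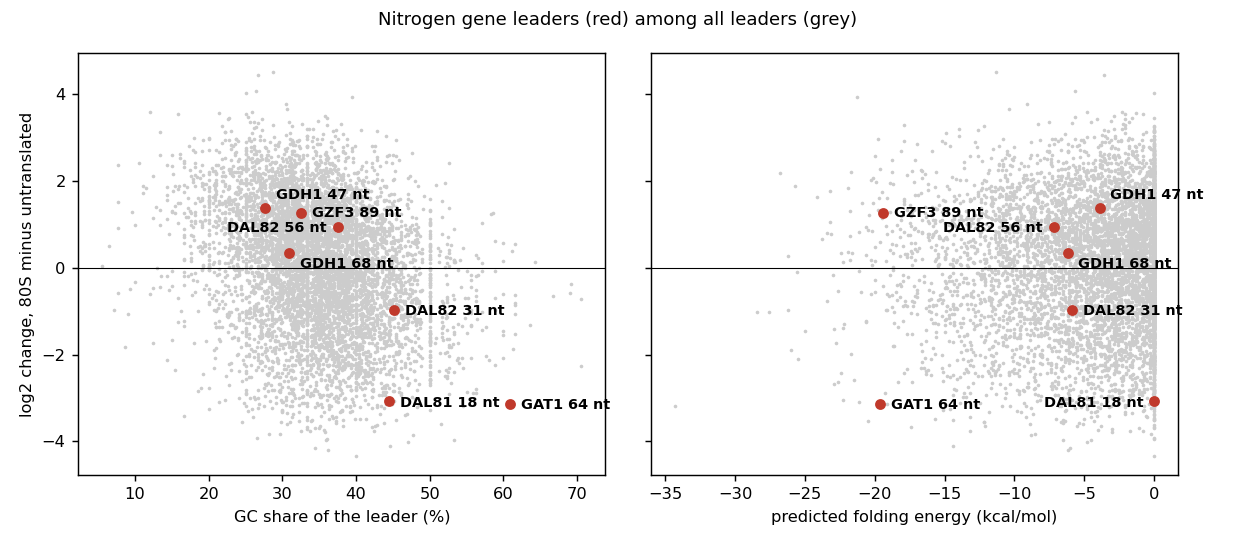
Log2 change between 80S and untranslated RNA against the share of G and C (left) and against the predicted folding energy of the leader (right), for all leaders with a sequence (grey) and the 7 members (red). GAT1 stands at the high end of G and C with 60.9%, while GAT1 and GZF3 have folding energies of -19.6 and -19.4 kcal/mol and lie at -3.13 and 1.25 on the vertical axis.

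DAL82, which binds the promoters of allophanate-induced genes, had its 2 leaders on opposite sides. The 56 nt leader had 3967, 4182 and 3623 FPKM in 80S, against 1896 and 2194 FPKM in untranslated RNA and 2647 FPKM in the input. It was 1.92-fold higher in 80S than in untranslated RNA (log2 0.94, 95% interval 0.53 to 1.36, limma, adjusted p = 0.00183). The 31 nt leader had 1258, 1026 and 1524 FPKM in 80S, against 3870 and 1540 FPKM in untranslated RNA and 4546 FPKM in the input. The highest 80S library came close to the lower untranslated one, and the untranslated replicates differed 2.51-fold, more than for 96.6% of all RNAs.

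The 31 nt leader of DAL82 was 1.95-fold lower in 80S than in untranslated RNA (log2 -0.96, 95% interval -1.82 to -0.11, limma, adjusted p = 0.0460). This call was the weakest of the 6. It was lost in limma without untranslated replicate 1 (log2 -0.30, adjusted p = 0.335), without 80S replicate 1 (-0.96, 0.0921) and without 80S replicate 2 (-0.82, 0.115), and without a mean-variance trend (-0.96, 0.0505). The adjusted p ranged from 0.000104 to 0.335 over the 13 alternatives.

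The leaders of DAL82 differed in their 80S to untranslated ratio, though the 2 untranslated libraries were far apart. The 56 nt leader made up 75.9%, 80.3% and 70.4% of the gene's FPKM in 80S, against 32.9% and 58.8% in untranslated RNA and 36.8% in the input. The 3 80S libraries lay above all others. The 80S to untranslated ratio of the 56 nt leader was 3.74-fold that of the 31 nt leader (log2 1.90, 95% interval 0.87 to 2.94, limma on the within-library difference of all 3811 pairs of leaders of 1 gene, adjusted p = 0.00592). Of all such pairs 68.6% were called, 33.7% with the longer leader higher and 34.9% with it lower. The size of the DAL82 difference lay at percentile 73.8 among them. Without untranslated replicate 1 the log2 difference was 1.13 and without replicate 2 it was 2.67, both past the limma threshold.

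The 25 nt that set the DAL82 leaders apart hold an ATG, shown in capitals above, at nucleotide 13 of the 56 nt leader. It lies 44 nt ahead of the start codon, out of frame with it, and opens a reading frame of 2 codons, ATG and GTT, before a TAA stop. No other member leader holds an ATG on the RNA's strand, and 14.2% of all leaders hold at least 1. The RNA with the upstream ATG was thus the one with the higher share in 80S. Among 443 pairs in which the longer leader alone holds an ATG, the longer one was higher in 161 and lower in 149, near the shares of all other pairs (1109 and 1172 of 3336). How the authors' counting assigned reads that fit both leaders of a gene is not given, and its part in these differences was not tested.

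GDH1, the NADPH-dependent glutamate dehydrogenase, leaned to 80S with its shorter leader. The 47 nt leader had 3772, 3248 and 2722 FPKM in 80S, against 1129 and 1372 FPKM in untranslated RNA and 3586 FPKM in the input. The untranslated libraries lay under all others, while the input fell within the range of the 80S libraries. The 47 nt leader was 2.59-fold higher in 80S than in untranslated RNA (log2 1.37, 95% interval 0.88 to 1.86, limma, adjusted p = 0.000586). This was the largest rise of the 7 members, at percentile 81.6 of all RNAs. The 68 nt leader had 5395, 5776 and 6086 FPKM in 80S, against 4591 and 4488 FPKM in untranslated RNA and 2740 FPKM in the input. Both fractions stood above the input, and 80S above untranslated by a log2 change of 0.34 (95% interval -0.04 to 0.72, limma, adjusted p = 0.0936), which was not called and is close to the median of 0.18 of all RNAs.

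The longer GDH1 leader made up 58.8%, 64.0% and 69.1% of the gene's FPKM in 80S, against 80.3% and 76.6% in untranslated RNA and 43.3% in the input. Its share was thus lowest in the input, highest in untranslated RNA and between them in 80S, with no overlap. The 80S to untranslated ratio of the 68 nt leader was 2.04-fold below that of the 47 nt leader (log2 -1.03, 95% interval -1.60 to -0.46, limma over all pairs, adjusted p = 0.00652). The size of this difference lay at percentile 46.2 of all pairs, of which 68.6% were called. The 21 nt that the longer leader adds contain no ATG. The longer leader thus had the lower 80S to untranslated ratio in GDH1 and the higher in DAL82, with intervals that do not overlap.

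**Figure D3:**
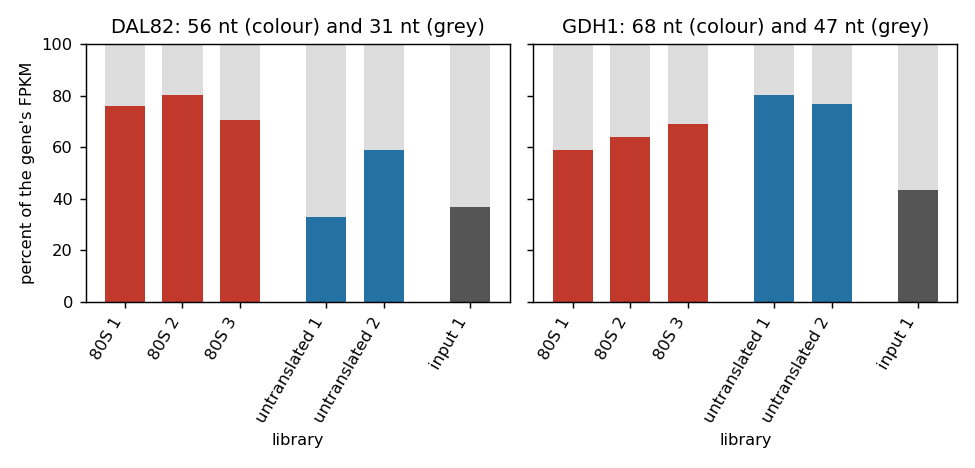
Share of each gene's FPKM in the longer leader (colour) and the shorter leader (grey) in every library, for DAL82 and GDH1. The longer DAL82 leader holds 70.4% to 80.3% in 80S and 32.9% to 58.8% in untranslated RNA, while the longer GDH1 leader holds 58.8% to 69.1% in 80S and 76.6% to 80.3% in untranslated RNA.

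Against the input, the members were called in both directions again. In 80S 2 of 7 members were higher than in the input, 3 were lower and 2 were not called, where the pool had 20.1% higher and 33.2% lower (53.3% in all). Rescaling by median ratios gave 1839 higher RNAs among all 6962, in place of 1399. As a share of the pool's calls alone, this was 48.9% in place of 37.7%. The number of members higher went to 3 of 7, with DAL82 56 nt added. GZF3 was 3.32-fold higher (log2 1.73, 95% interval 1.17 to 2.29, limma, adjusted p = 0.000893), at percentile 95.1 of all RNAs, and GDH1 68 nt was 2.10-fold higher (log2 1.07, adjusted p = 0.00344). GAT1 was 5.50-fold lower (log2 -2.46, 95% interval -3.26 to -1.66, limma, adjusted p = 0.000906). DAL81 was 3.94-fold lower (log2 -1.98, limma, adjusted p = 0.00244) and DAL82 31 nt 3.63-fold lower (log2 -1.86, limma, adjusted p = 0.0112). GDH1 47 nt stood at -0.16 (95% interval -0.78 to 0.46, limma, adjusted p = 0.645). DAL82 56 nt stood at 0.57 (limma, adjusted p = 0.0669) and gained a call in limma under 3 of 12 alternatives. These were rescaling by median ratios (log2 0.81, adjusted p = 0.0207) and leaving out untranslated replicate 1 (0.57, 0.0348) or 2 (0.57, 0.0363), and over all 12 the adjusted p ranged from 0.0207 to 0.158.

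In untranslated RNA 2 of 7 members were higher than in the input, 1 was lower and 4 were not called, where the pool had 17.4% higher and 34.4% lower (51.8% in all). With rescaling by median ratios 52.8% of the pool's calls were higher, against 33.5% without it. GDH1 47 nt was 2.88-fold lower (log2 -1.53, 95% interval -2.18 to -0.87, limma, adjusted p = 0.00333), while its 80S level was not called against the input. DAL81 was 2.14-fold higher (log2 1.09, limma, adjusted p = 0.0394). GDH1 68 nt was 1.66-fold higher (log2 0.73, limma, adjusted p = 0.0243). GAT1 stood at 0.67 (limma, adjusted p = 0.156) and GZF3 at 0.48 (limma, adjusted p = 0.154). The comparisons share the 80S, untranslated or input libraries and are not independent, and limma lends the lone input library the spread of the others.

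Both rises called in untranslated RNA against the input lost their call when some single libraries were left out. In limma, DAL81 lost its call without 80S replicate 2 (adjusted p = 0.0551), and GDH1 68 nt without 80S replicate 1 (0.0584) or 80S replicate 3 (0.0577). The 80S libraries enter this comparison only through the shared estimate of spread, and the log2 changes stayed at 1.09 and 0.73. DAL81 also lost its call without untranslated replicate 2 (log2 0.90). GDH1 68 nt stood at 0.71 without untranslated replicate 1 and at 0.74 without replicate 2. Over 12 alternatives the adjusted p ranged from 0.0109 to 0.0681 for DAL81 and from 0.00494 to 0.0584 for GDH1 68 nt. Without untranslated replicate 1, GZF3 and DAL82 31 nt gained a call (limma, log2 0.65 and -1.56). The rises of GAT1 and GZF3 over the input passed in limma after rescaling by median ratios (log2 1.06 and 0.86).

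**Figure D4:**
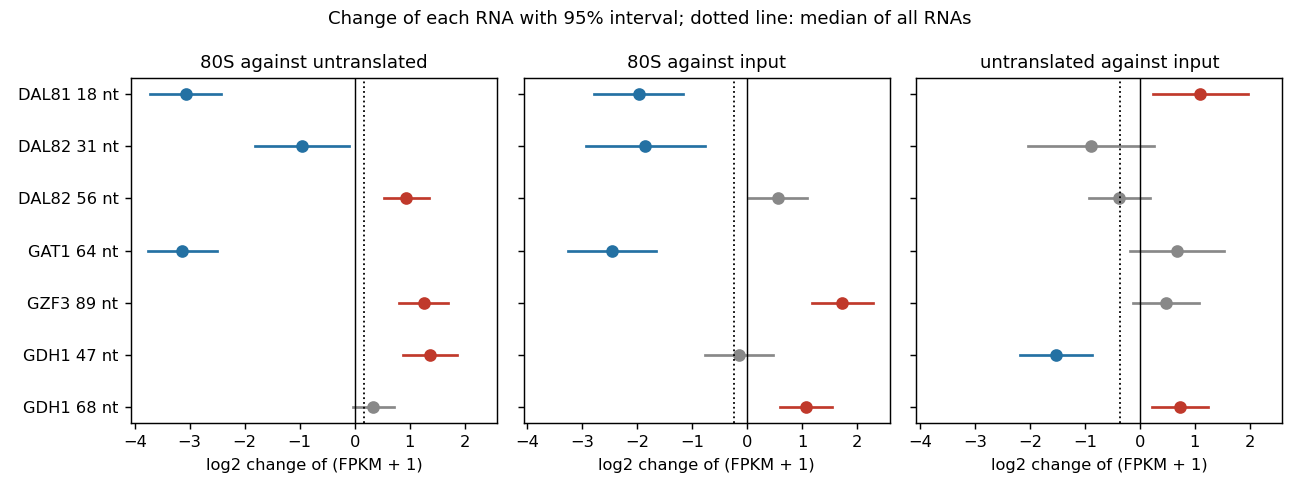
Log2 change of each member with its 95% interval from limma in the 3 comparisons, red where higher, blue where lower and grey where not called, with a dotted line at the median of all RNAs. GAT1 and DAL81 stand at -3.13 and -3.07 for 80S against untranslated, and the GDH1 47 nt RNA at 1.37 there and at -0.16 for 80S against input.

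The order of the members by FPKM, by name a level per length, differed between fractions. In 80S it ran from GZF3 (18429 ± 2791, SD, n = 3) through GDH1 68 nt (5752 ± 346), DAL82 56 nt (3924 ± 282), GDH1 47 nt (3247 ± 525), DAL82 31 nt (1269 ± 249) and DAL81 (479 ± 136) to GAT1 (126 ± 29.7). Of neighbours in this order, the libraries of DAL82 56 nt and GDH1 47 nt alone overlapped. In untranslated RNA it ran from GZF3 (7725 ± 1338, SD, n = 2) through GDH1 68 nt (4539 ± 72.5), DAL81 (3963 ± 750), DAL82 31 nt (2705 ± 1648), DAL82 56 nt (2045 ± 211) and GDH1 47 nt (1250 ± 172) to GAT1 (1092 ± 4.38). There GDH1 68 nt overlapped with DAL81, DAL81 with DAL82 31 nt, and DAL82 31 nt with DAL82 56 nt. The libraries of DAL82 56 nt and GDH1 47 nt lay apart. GZF3 was the highest member and GAT1 the lowest in all 3 kinds of library.

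Other genes of nitrogen metabolism, taken from 3 lists, also went in both directions between 80S and untranslated RNA. Over all RNAs 38.6% were higher in 80S and 31.8% lower. Of 21 other regulators listed, 14 had RNAs in the table, and of these 24 RNAs 12 were higher in 80S, 7 lower and 5 not called, with a median log2 change of 0.55 against 0.18 for all RNAs. UGA3, the activator of the genes for GABA use, was highest: its 28 nt RNA had 3963 ± 548 FPKM across the 80S libraries (SD, n = 3) and 648 ± 134 FPKM across the untranslated ones (SD, n = 2), a log2 change of 2.62 (limma, adjusted p = 2.941e-05). ARO80, the activator for aromatic amino acid breakdown, followed with its 65 nt leader at 1.85 (limma, adjusted p = 0.00194). LEU3, a regulator of leucine synthesis, with 100 nt (-2.23) and SSY5, the protease of the amino acid sensor at the plasma membrane, with 56 nt (-3.01) were lowest. The other 3 SSY5 RNAs, singled out after their values were seen, were higher in 80S (36 nt, 0.75, 23 nt, 0.71, and 79 nt, 0.70).

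Of 19 genes listed for ammonium and amino-nitrogen metabolism, 12 had RNAs, and of these 20 RNAs 5 were higher in 80S than in untranslated RNA, 7 lower and 8 not called, with a median log2 change of 0.08. ASN1, an asparagine synthetase, with 54 nt (2.69) and ADY2, an acetate and ammonia transport protein, with 112 nt (1.89) were highest. The 69 nt and 54 nt leaders of ATO3, a putative ammonia exporter, were lowest (-2.98 and -3.05). GDH3, the paralogue of GDH1 with the same reaction, was singled out after its values were seen: its 38 nt RNA was lower in 80S (-2.93, limma, adjusted p = 3.486e-05) and its 50 nt RNA stood at 0.60 (limma, adjusted p = 0.0504). Against the input, these 20 RNAs were mostly lower in both fractions. In 80S 12 were lower than in the input and 0 higher by limma's call (0 higher also at an unadjusted p under 0.05), with a median log2 change of -1.24 against -0.25 for all RNAs, of which 33.2% were lower and 20.1% higher. In untranslated RNA 11 were lower than in the input and 5 higher, with a median of -1.30 against -0.36 for all RNAs, of which 34.4% were lower and 17.4% higher.

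Of 23 catabolic genes under nitrogen catabolite repression, 14 had RNAs. Of these 18 RNAs, 5 were higher in 80S than in untranslated RNA, 4 lower and 9 not called, with a median log2 change of 0.21. PUT2, of proline breakdown, with 56 nt (2.49) and DUR3, the urea permease, with 28 nt (2.05) were highest. CHA1, which breaks down serine and threonine, with 19 nt (-1.64) and ARO10, a decarboxylase of aromatic amino acid breakdown, with 105 nt (-2.15) were lowest. Against the input, 8 of these 18 RNAs were lower in 80S and 5 higher (median log2 change -0.34), and 10 were lower in untranslated RNA and 2 higher (median -0.81). Of the 24 RNAs of other regulators, 8 were lower in 80S than in the input and 4 higher (median 0.04), and 8 were lower in untranslated RNA and 3 higher (median -0.42). Of all RNAs 33.2% were lower in 80S than in the input and 20.1% higher (median -0.25). In untranslated RNA 34.4% of all RNAs were lower and 17.4% higher (median -0.36). No list was tested as a whole.

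**Figure D5:**
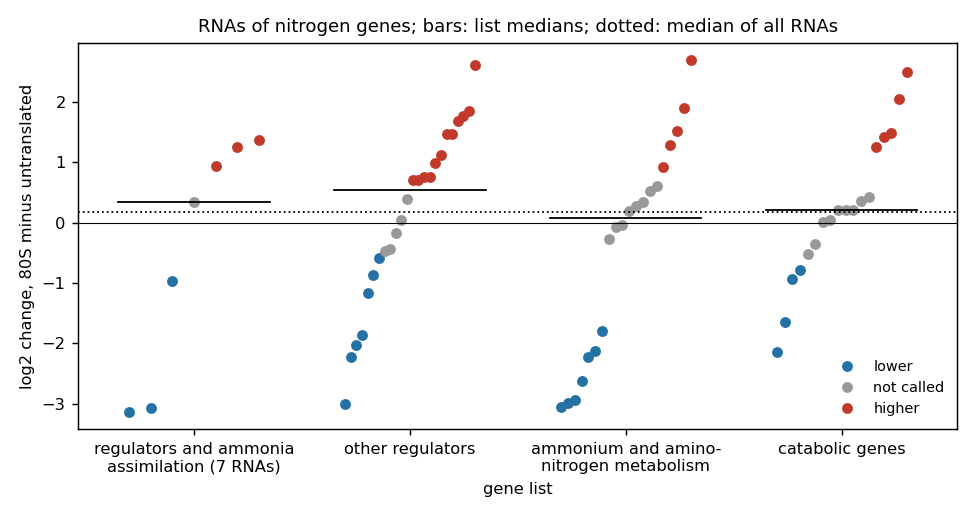
Log2 change between 80S and untranslated RNA for the 7 members and the RNAs of the 3 lists, each point 1 RNA, red where higher, blue where lower and grey where not called, with a bar at each list's median and a dotted line at the median of all RNAs (0.18). Every list holds RNAs called in both directions, from -3.05 for ATO3 54 nt to 2.69 for ASN1 54 nt.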

How the data were processed

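The deposited values are FPKM, 1 for each RNA and library, as the authors made them, per the file headers. The submitters' processing notes list cutadapt and STAR with no version. How FPKM were computed, on which build and with what rule for shared reads is not given in the sources used here. Depth is unknown: of RNAs that are alone for their gene, 57.1% of the 56 input values up to 10 times the lowest (23.9 FPKM) were whole multiples of it, to within 0.01 of a step, but 2.27% of the 2070 higher ones, so whole reads could not be recovered. FPKM sums per library lay between 24779725 and 28542241.

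Groups and replicate numbers came from the labels. With limma 3.58.1 (R 4.3.3), log2(FPKM + 1) of all 6 libraries was modelled, with 1 mean per group and a mean-variance trend (3 residual and 5.15 prior degrees of freedom). Tests used Benjamini-Hochberg adjustment at 0.05 over all RNAs, or over all pairs of leaders of 1 gene, and the method was checked on simulated data. A filter (mean FPKM of at least 10, input above 0) removed 0 RNAs. For 3 against 2 libraries the smallest two-sided p of an exact permutation test is 0.1.

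The number in each RNA's name was read as leader length. Of the 6962 RNAs, 6855 (98.5%) received a sequence from R64. Their first base was A in 78.3%, against a mean share of A of 40.5%, and a pyrimidine preceded it in 96.1%. Folding energies came from ViennaRNA 2.7.2, and summaries from Python 3.11.15. Every member RNA is named. From the other lists the 2 highest and 2 lowest RNAs of 80S against untranslated are named, and for the members with the highest and the lowest log2 change the 3 nearest RNAs of other genes. Members and lists were chosen with earlier results of these data known. Alternatives changed the pseudocount (0.1 or 10), the filter, the scaling (median ratios), the trend or the groups in the fit, added a replicate block, or left out 1 library.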

Additional observations from a re-analysis of the deposited data

How the results depend on the processing

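Of 285 recomputed values of single RNAs and leader pairs, 268 kept their direction and their side of the threshold, 8 lost a call, 7 gained one and 2 changed sign. Fits without the filter, or with a stricter one (mean FPKM of at least 100, input of at least 10), repeated the main values exactly. Their values are among the 268 and say nothing about stability. The 2 sign changes came from rescaling by median ratios: GDH1 47 nt stood at 0.085 for 80S against input and DAL82 56 nt at 0.012 for untranslated against input, neither called. With that rescaling 4 members were higher in untranslated RNA than in the input in place of 2, and 1825 of all RNAs in place of 1209. Leaving out 1 library gave 1 to 3 members higher and 1 to 2 lower in that comparison. Counts of members called in the other comparisons stayed within 1.5 times under every alternative run. Same-numbered 80S and untranslated libraries deviated from their group means with correlations of 0.09 and 0.53 over all RNAs, against 0.55 for the differently numbered 80S replicate 3 and untranslated replicate 1, and the labels give them a shared number and nothing else. With the number as a replicate block the leader difference was 2.10 for DAL82 and -1.19 for GDH1, and no call of a member changed. The single input library was left out in the fit of only the groups compared, for 80S against untranslated and for the leader pairs, where no call of a member changed; comparisons with the input cannot be made without it. Without read counts the counting error of low values such as GAT1 in 80S is unknown.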

Other observations

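Some RNAs of unrelated genes had profiles close to those of members, measured as the Euclidean distance over the log2 ratios to input of the 5 fraction libraries. All ratios share the input library, and no shared function is implied. The log2 change between 80S and untranslated RNA derives from the same ratios, so its likeness among neighbours follows from how they were picked. Nearest to GDH1 47 nt were PKH1 101 nt (distance 0.200), HOS4 47 nt (0.201) and RFC2 70 nt (0.212), with log2 changes of 1.30, 1.47 and 1.33 between 80S and untranslated RNA. Nearest to GAT1 were NUP116 75 nt (0.213), CUB1 96 nt (0.385) and SSB2 23 nt (0.434), with log2 changes of -3.18, -3.07 and -2.96.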
